A study of Drosophila melanogaster with 3 samples.

Results

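MicroRNA precursor genes are the genes whose transcript is annotated as a microRNA precursor, the hairpin from which mature microRNAs are cut. The Ensembl annotation of the fly genome build dm6 places 260 of them on the chromosome arms, out of 17796 genes in all. They were described here in a chromatin immunoprecipitation experiment followed by sequencing (ChIP-seq), which maps where a protein sits on DNA. The protein was CG16779, made as a fusion with enhanced green fluorescent protein (eGFP) from its own locus, in a Drosophila melanogaster line whose CG16779 gene carries an eGFP exon within an intron. Chromatin from whole prepupae, males and females pooled and of unknown age, was sheared by sonication, with fragments between 200 and 800 bp, before precipitation with anti-GFP antibody. The 3 biological replicates form the single group, without a second genotype, stage or treatment, so no conditions could be compared. Whole animals mix all tissues, and a region bound in few cells cannot be told apart from a weakly bound one.

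A microRNA is transcribed as part of a longer primary transcript, often within an intron or exon of a host gene on the same strand. The nuclear enzyme Drosha with its partner Pasha crops the hairpin, Dicer-1 cuts out the duplex, and a strand of it is loaded into Argonaute 1. The mature microRNA then represses messenger RNAs that pair with its seed, a short stretch near its 5′ end. Because the precursor is a product of processing, the promoter that drives it can lie far from the hairpin. Flies use microRNAs to time metamorphosis, to restrain cell death, and to shape muscle, nerve and fat.

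The microRNAs on which the results below turn are shown by a mature strand each, 5′ to 3′, from RefSeq's annotation and Release 6 assembly, the same build as dm6. Capitals mark the seed, bases 2 to 8. All 260 precursors matched mature entries there, 481 in all. The first pair come from 1 primary transcript and share the seed GACUAGA, while the other 8 shown carry seeds that differ from it and from each other.
mir-279-3p: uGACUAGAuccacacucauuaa
mir-996-3p: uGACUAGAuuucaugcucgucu
mir-92a-3p: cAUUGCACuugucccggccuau
bantam-3p: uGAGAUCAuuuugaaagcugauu
mir-276a-3p: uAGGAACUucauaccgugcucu
mir-1-3p: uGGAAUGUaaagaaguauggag
mir-275-3p: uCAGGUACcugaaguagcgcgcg
mir-305-5p: aUUGUACUucaucaggugcucug
mir-282-5p: uAGCCUCUacuaggcuuugucugu
mir-4962-5p: uUUCCCUCucucuguuuacauuga

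The DNA under 8 of the peaks described below follows, chosen to show strong peaks at well-studied microRNAs and windows with and without GA repeats. Each is the plus strand of dm6 in the window of 121 bases centred on the summit, the position of highest signal in the authors' list. Capitals mark matches to the GA repeat core GAGAG on either strand, the plus strand then reading GAGAG or CTCTC. The windows lie at chr3R:29214378-29214498, chr3R:29215168-29215288, chr3L:640683-640803, chr3L:10365081-10365201, chrX:3777321-3777441, chr3R:10089320-10089440, chr3R:25647001-25647121 and chr3R:25647977-25648097, in the order of the lines.
Upstream of mir-279, strongest peak: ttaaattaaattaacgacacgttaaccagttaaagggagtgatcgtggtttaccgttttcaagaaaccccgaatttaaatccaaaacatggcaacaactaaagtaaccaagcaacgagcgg
Closer to mir-279: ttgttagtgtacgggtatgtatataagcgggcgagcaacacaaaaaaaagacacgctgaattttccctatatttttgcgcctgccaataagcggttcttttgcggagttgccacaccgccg
Upstream of bantam: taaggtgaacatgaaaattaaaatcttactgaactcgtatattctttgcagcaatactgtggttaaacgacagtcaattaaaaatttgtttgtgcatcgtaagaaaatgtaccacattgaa
Upstream of mir-276a: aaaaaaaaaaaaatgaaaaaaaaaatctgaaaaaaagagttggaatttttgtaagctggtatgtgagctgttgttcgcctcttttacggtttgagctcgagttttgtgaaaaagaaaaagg
At mir-4962: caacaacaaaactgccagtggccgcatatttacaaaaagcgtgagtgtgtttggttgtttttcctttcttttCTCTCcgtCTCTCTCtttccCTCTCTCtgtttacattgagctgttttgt
Upstream of mir-317: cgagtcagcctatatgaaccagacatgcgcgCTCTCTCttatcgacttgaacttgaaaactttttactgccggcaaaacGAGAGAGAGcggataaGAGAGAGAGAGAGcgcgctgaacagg
Downstream of mir-92a: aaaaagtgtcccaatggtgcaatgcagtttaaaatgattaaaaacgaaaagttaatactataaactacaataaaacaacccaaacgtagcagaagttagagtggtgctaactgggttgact
Further downstream of mir-92a: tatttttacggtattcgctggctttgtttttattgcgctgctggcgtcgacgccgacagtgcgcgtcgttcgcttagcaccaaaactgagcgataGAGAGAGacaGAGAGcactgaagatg
The windows at mir-279, bantam and mir-276a and the first at mir-92a hold no such match. The bantam peak does hold GAGAG farther out, within 100 bp of its summit, and is counted with the GAGAG peaks below. The window at mir-4962 runs into the precursor itself, and all of its marked matches lie within the hairpin. The last run of capitals is part of mir-4962-5p. That peak too is counted with the GAGAG peaks below. The window upstream of mir-317 is the one with the most capitals, 29 of its 121 bases.

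For each replicate the authors list 30000 regions with a score each, and for the replicates together a pooled list of 30000 regions. Their final set, selected by the irreproducible discovery rate (IDR), holds 4805 peaks on the arms. Scores were assigned by the authors and are not comparable between replicates, so ranks within a list are given beside them. The strongest IDR peak at each precursor or host had the same score and rank in the pooled list. Replicate 3 stood somewhat apart: it listed a region at 86.8% of the IDR peaks, against 98.9% in replicate 1 and 98.6% in replicate 2. Below, the strongest regions of a replicate are its first 4805.

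An IDR summit lay within 2 kb of 37 of the 260 precursors, or 14.2% (exact 95% binomial interval 10.2% to 19.1%), against 10.7% of all arm bases. In the replicates' own strongest regions the share was 11.9%, 13.8% and 14.6% of precursors, 13.5% ± 1.39 (SD, n = 3), against 10.6%, 10.9% and 10.4% of arm bases, 10.6% ± 0.232. The precursor shares exceeded the base shares in each replicate, but the interval of the IDR share includes the share of arm bases. Among other short non-coding genes, 25.6% of small nucleolar and small nuclear RNA genes and 23.8% of transfer RNA genes had an IDR summit within 2 kb of their 5′ ends. The same share was 18.9% for protein-coding genes and 18.8% for all genes other than the precursors. The 260 precursors formed 203 loci of same-strand neighbours no more than 10 kb apart, and 32 of these loci (15.8%, interval 11% to 21.5%) had a summit. Neighbours share summits, so the intervals cover counting error only. Sets built without replicate 1, 2 or 3 hold fewer regions and gave 21, 17 and 22 precursors. These were 8.08%, 6.54% and 8.46% of precursors, against 6.46%, 6.69% and 7.93% of arm bases.

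Nearness to an annotated start site of another gene moved with these shares. Of the 135 precursors within 2 kb of a start site, 28 had an IDR summit (20.7%, interval 14.2% to 28.6%), against 18.4% of arm bases equally close to one. Of the 125 precursors farther away, 9 did (7.2%, interval 3.35% to 13.2%), against 6.26% of such bases. Within both classes the share of precursors therefore lay near that of all arm bases of the same class. In the pooled list, which holds many weak regions, 103 precursors (39.6%) had a summit within 2 kb, against 43.4% of arm bases. No region of the pooled or replicate lists lay within 2 kb of 77 of the 260 precursors (29.6%). The matching share of arm bases is not given here, so this count has no background.

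Precursors in noncoding hosts had an IDR summit within 2 kb in 10 of 47 cases (21.3%, interval 10.7% to 35.7%), those in protein-coding hosts in 16 of 138 (11.6%, 6.77% to 18.1%), and those with no host in 11 of 75 (14.7%, 7.56% to 24.7%). These intervals overlap. The median distance to the nearest IDR summit was 8699.5 bp for precursors in protein-coding hosts, 12890 bp in noncoding hosts and 23831 bp without a host, against 10930 bp for protein-coding genes. Over all members the median was 12600 bp, with quartiles of 3767.8 and 25700 bp. Precursors that fill an intron end to end within 5 bp, as mirtrons do, had a summit in 2 of 34 cases (5.88%). The interval, 0.72% to 19.7%, includes the 14.2% of all precursors. By arm, the counts were 8 of 56 on 2L, 9 of 55 on 2R, 6 of 31 on 3L, 7 of 58 on 3R and 7 of 58 on X, and neither of the 2 precursors on chromosome 4 had one.

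**Figure D1:**
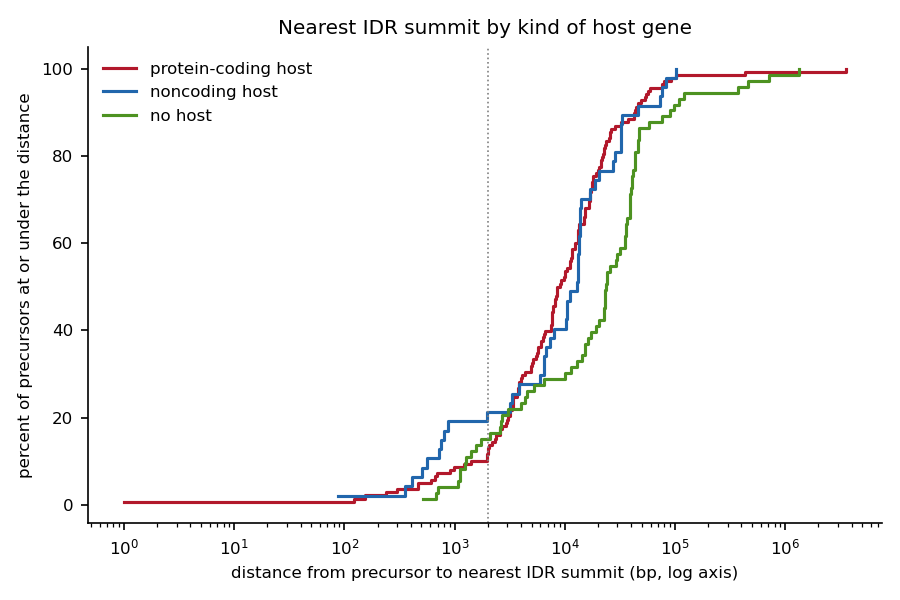
Percent of precursors (y axis) whose nearest IDR summit lies at or under a distance (x axis, bp, log axis), by kind of host; the dotted line marks 2 kb. The line for precursors without a host lies to the right over most of its length, and their median is 23831 bp.

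The 43 IDR peaks near precursors had a median score close to that of all IDR peaks, but few of them ranked at the very top. Their scores ranged from 173.8 to 1981 with a median of 293.4, against 278.6 for all IDR peaks on the arms. On a scale of percentiles where all IDR peaks centre on the midpoint, their median was 54.3 (quartiles 27.7 and 72). By the scores of replicates 1, 2 and 3 it was 56.5, 51.8 and 52.2, or 53.5 ± 2.59 (SD, n = 3). Among the first 500 IDR peaks stood 1 of the 43 (2.33%), against 10.4% of all IDR peaks, and 5 (11.6%, against 10.4%) were among the next 500. Beyond rank 2000 lay 22 (51.2%), against 58.4% of all. Each peak overlapped a region in replicates 1 and 2, and 39 of the 43 (90.7%) also in replicate 3. All 3 replicates had 22 of them (51.2%) among their strongest regions, against 49.6% of all IDR peaks.

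Of the 43 summits, 32 lay upstream of the nearest precursor in the direction of transcription, 11 downstream and 0 inside. Near snoRNA and snRNA genes 34 of 42 summits were upstream, and near transfer RNA genes 20 of 47. Promoter summits, no more than 500 bp from an annotated start, numbered 22 (51.2%), against 42.5% of all IDR peaks, and 19 of them lay at a start of the precursor's own host. A further 8 (18.6%) were in exons outside promoters, against 3.04% of all IDR peaks, and 13 (30.2%) in introns, against 41.1%. None was intergenic, against 13.3%. A window around a precursor lies mostly within its host where there is one, so the class of a nearby summit is tied to how the summits were chosen.

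**Figure D2:**
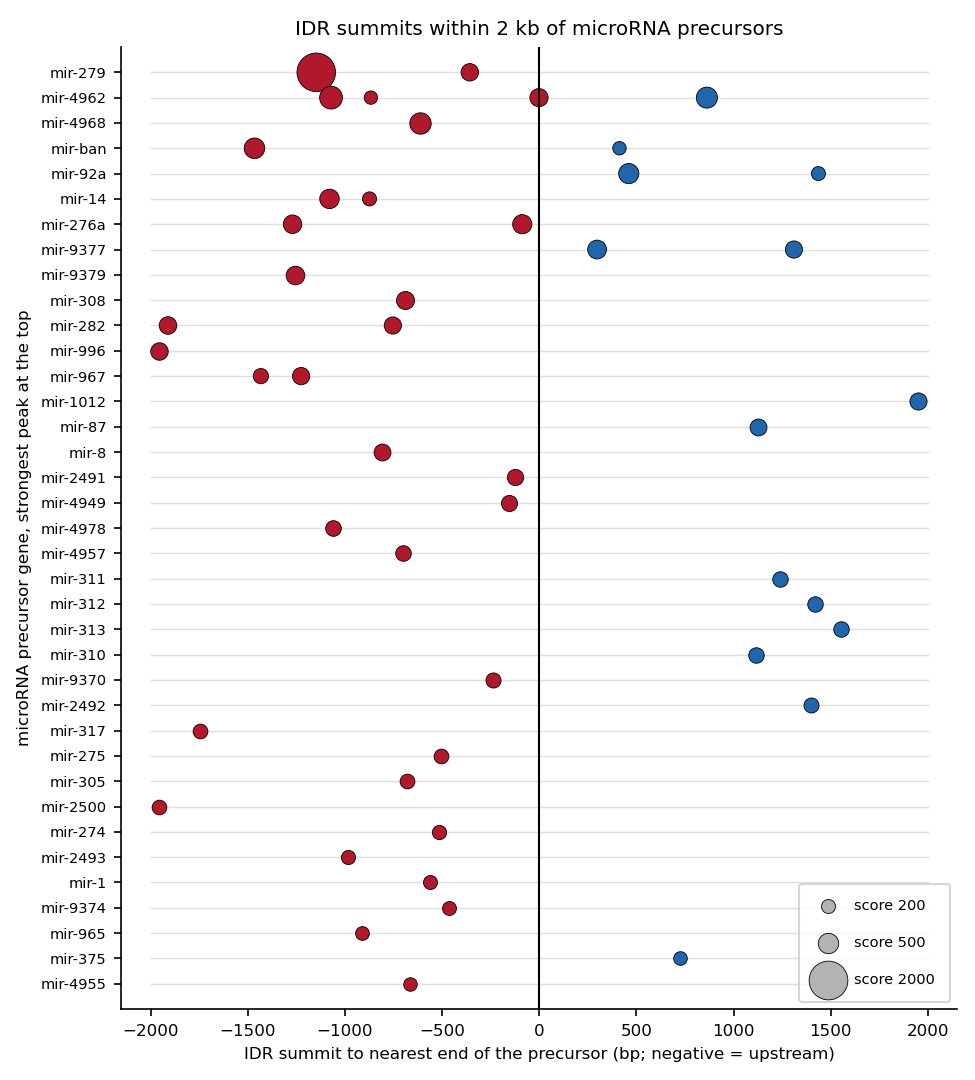
Each dot is an IDR summit within 2 kb of a precursor, placed by its distance to the nearer end of the precursor (x axis, bp; red upstream, blue downstream) and sized by its score; rows are the 37 precursors, strongest peak at the top. The dot of mir-279, at 1147 bp upstream with a score of 1981, is the largest.

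mir-279, which shares a seed with mir-996 and with it suppresses carbon dioxide-sensing neurons on the fly's mouthparts, had by far the strongest peak. Its IDR score was 1981, rank 25 of 4805, at chr3R:29214245-29214602. It ranked 43, 28 and 23 in replicates 1, 2 and 3, with scores of 584, 575.9 and 855.6, so the replicates placed it alike. The summit lay 1147 bp upstream of mir-279 and more than 2 kb from mir-996. It was 124 bp from the start of the long noncoding RNA lncRNA:CR31044, whose transcript contains both hairpins. A second IDR peak of rank 1664 lay 357 bp upstream of mir-279 and 1956 bp upstream of mir-996, within an exon of that RNA. Its replicate ranks were 1127, 3461 and 1496.

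bantam, which promotes tissue growth and blocks cell death, had 2 IDR summits close by. One, of rank 825, lay 1465 bp upstream, with replicate ranks 1890, 816 and 677. Another, of rank 4688, lay 413 bp downstream and ranked 4563, 3734 and 8638. Its host, lncRNA:CR43334, had a further IDR peak of rank 1532 at a start site, with the summit 210 bp from that start and 13983 bp from the hairpin. bantam thus had summits both beside the hairpin and at a distant start of its host.

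The noncoding hosts of mir-276a, mir-282, mir-275 and mir-1 also had IDR peaks at a start site. mir-276a, which is active in memory circuits of the fly brain, had a summit 87 bp upstream of the hairpin, of rank 1112 and replicate ranks 487, 2484 and 2031. A second summit of rank 1298 lay 1269 bp upstream and 60 bp from a start of lncRNA:CR46006, with replicate ranks 831, 1182 and 2458. Both stood higher in replicate 1 than in the other replicates.

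mir-282 lay in lncRNA:CR43626, whose strongest start peak had rank 444 and replicate ranks 465, 670 and 415. Its summit was 2110 bp from the hairpin and so just outside the 2 kb window. Within the window lay 2 more IDR summits of ranks 1616 and 1756, 1910 and 753 bp upstream. The summit of rank 1616 overlapped the same replicate regions as the start peak of rank 444. mir-275 and mir-305, a cluster in which mir-305 acts in intestinal stem cells, shared 1 summit of rank 3236, 505 and 682 bp upstream, with replicate ranks 4750, 5551 and 1800. The host of mir-275, lncRNA:CR43857, had a higher peak of rank 1937 at its start, 2067 bp away, with replicate ranks 1761, 1538 and 1952. mir-1, the muscle microRNA, had a weak peak of rank 3939, 563 bp upstream and 356 bp from a start of lncRNA:CR45361. Its replicate ranks were 3163, 4771 and 7200, so replicate 3 placed it outside its strongest regions.

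On arm 2R, 4 loci with well-studied microRNAs had IDR summits nearby. mir-14, which limits cell death and fat storage and acts on the ecdysone receptor, had a peak of rank 1051 at the start of lncRNA:CR43651, 1079 bp upstream. It ranked 881, 1236 and 868 in replicates 1, 2 and 3, and a second summit of rank 3851 overlapped the same replicate regions. mir-8, which promotes growth through the fat body, had a summit of rank 1896 located 808 bp upstream and 65 bp from a start of lncRNA:CR43650, with replicate ranks 2746, 3568 and 1069. mir-308, in an intron of the ribosomal protein gene RpS23, had a summit of rank 1454 located 688 bp upstream and 26 bp from the RpS23 start. The cluster mir-310, mir-311, mir-312 and mir-313 shared 1 downstream peak of rank 2682, an intronic peak that ranked 5023, 3086 and 2052.

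mir-92a, which keeps neural stem cells from differentiating, showed the largest disagreement between replicates. It lies in jigr1, a gene for a DNA-binding protein that it is expressed with. Its strongest peak, of rank 881, lay 461 bp downstream and ranked 5260, 14599 and 206 in replicates 1, 2 and 3. Only replicate 3 placed that peak among its strongest regions. A second peak of rank 3886, located 1437 bp downstream, ranked 3487, 4129 and 3997, so the replicates placed it alike. Both summits lie at start sites of jigr1 downstream of the hairpin, whose transcripts do not contain mir-92a. The highest rank number exceeded the lowest by a factor of 70.9 at mir-92a, 14.1 at mir-967, 10.9 at mir-9379, 7.11 at mir-317 and 6.5 at mir-87.

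**Figure D3:**
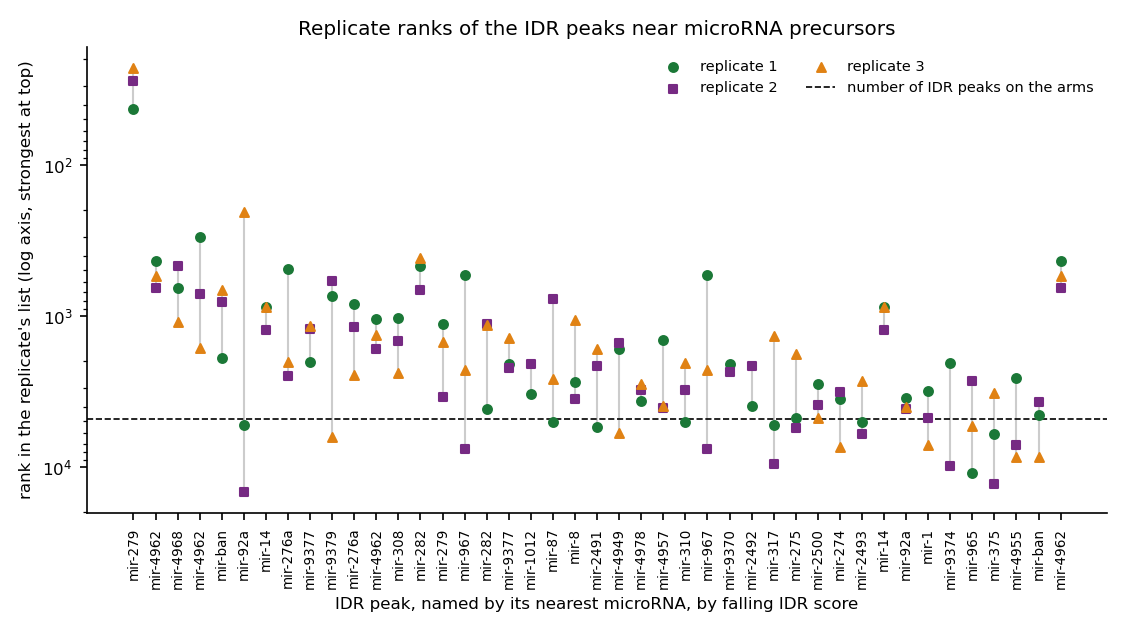
Rank of the overlapping region in replicate 1 (circles), 2 (squares) and 3 (triangles) for each of the 43 IDR peaks near precursors, on a log axis with the strongest at the top; the dashed line marks rank 4805 and peaks run from the highest IDR score on the left. mir-279 leads in each replicate, and mir-92a spans ranks 206 to 14599. A point is missing where a replicate lists no region.

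Several high-ranking summits lay at little-studied precursors inside long protein-coding genes. mir-4962 sits in an intron of Tlk, a kinase gene of the Tousled family, and had 4 IDR summits within 2 kb, of ranks 531, 736, 1398 and 4804. The strongest ranked 433, 657 and 544 in replicates 1, 2 and 3, and the summit of rank 4804 overlapped the same replicate regions. The summit of rank 1398 lay 1 bp upstream of the hairpin, the smallest distance of any member. Tlk itself had 17 IDR summits in its body and 6 at its start sites. mir-4968 in Mob2, a gene for a kinase adaptor, had a peak of rank 692 located 615 bp upstream at a Mob2 start, with replicate ranks 653, 471 and 1093. mir-9377 in Tis11, a gene for an RNA decay factor, had 2 intronic summits of ranks 1217 and 1765, both downstream. mir-967 in bun, a gene of the TSC-22 family, had 2 of ranks 1719 and 2822 that overlapped the same regions in each replicate.

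The remaining named members had weaker or less even peaks. mir-9379, with its summit 175 bp from the start of Echs1, a gene for a fatty acid oxidation enzyme, had rank 1267 and replicate ranks 741, 585 and 6355. mir-87 had rank 1873 and replicate ranks 5065, 779 and 2623, and mir-317 had rank 3234 and replicate ranks 5281, 9633 and 1355. mir-1012 in Lerp, mir-9370 in Amun and mir-2492 had peaks of ranks 1779, 2953 and 3020 with no region in replicate 3. mir-2491, mir-4949, mir-4978 and mir-4957 had ranks between 2197 and 2609. Among members with no IDR summit within 2 kb, the highest pooled ranks were 5056 for mir-2496, 5138 for mir-4975, 5423 for mir-4985 and 5516 for mir-277 and mir-34, which share that region. All of these lie just past the last rank in the IDR set. mir-9380, chosen after its values were seen, had regions within 2 kb of ranks 300 and 269 in replicates 1 and 2, but none in replicate 3, the pooled list or the IDR set.

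Host genes had an IDR summit at a start site more often than genes in general. Among the 168 hosts, 49 had an IDR summit no more than 500 bp from a start site (29.2%, interval 22.4% to 36.7%), against 11.9% of all genes other than the precursors. By the strongest regions of each replicate the shares of hosts were 29.2%, 31.5% and 27.4%, 29.4% ± 2.09 (SD, n = 3), against 13.3%, 14.3% and 10.3% of other genes, 12.6% ± 2.06. No replicate value of the hosts reached down to the other genes' values. Of protein-coding hosts, 38 of 130 had one (29.2%, 21.6% to 37.8%), against 13.0% of protein-coding genes. Of noncoding hosts, 11 of 38 had one (28.9%, 15.4% to 45.9%), against 8.59% of other non-coding genes. The hosts themselves are counted within each of these backgrounds. Without replicate 2 the smaller set of shared regions gave 32 hosts (19%, against 7.46% of protein-coding genes).

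Host genes were also longer, with a median of 13462 bp for protein-coding hosts against 2164.5 bp for protein-coding genes, and had a median of 2 start sites against 1. Of the 65 protein-coding hosts at or above that median length, 30 had a summit at a start site (46.2%, 33.7% to 59%), against 33.2% of protein-coding genes of at least the same length. Of the 65 shorter hosts, 8 had one (12.3%, 5.47% to 22.8%), against 10.6% of shorter protein-coding genes. The interval of the long hosts stops just short of its background and that of the shorter hosts includes it. CG45092 and chk have the same coordinates and the same peak of rank 1095. They count as 2 of the 30 long hosts, and of the 49 hosts above. The narrow margin of the long hosts was not recounted with this pair as 1 host. Within each length class hosts were still the longer genes, with medians of 29409 against 26922 bp and of 4015 against 1903.5 bp. Noncoding hosts had a median of 6087.5 bp against 714 bp for other non-coding genes. The part of gene length in these shares beyond the classes was not tested.

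**Figure D4:**
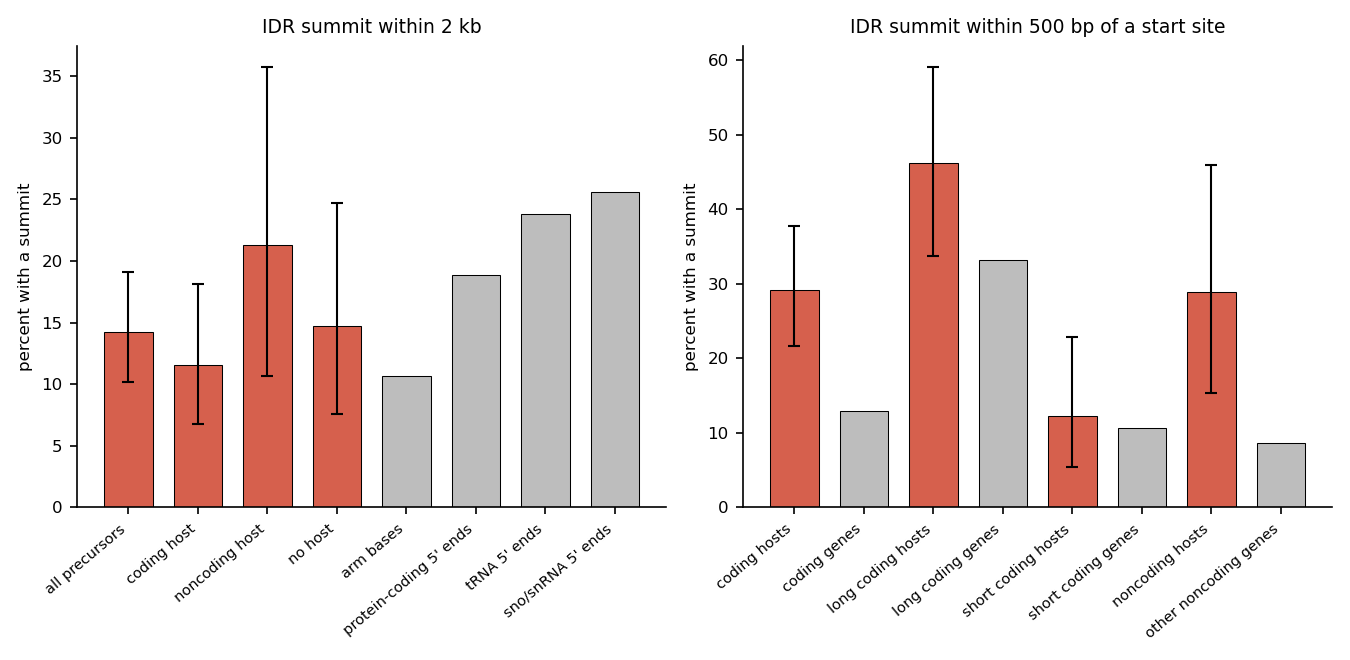
Percent with an IDR summit (y axis) within 2 kb of a precursor or 5′ end (left panel) and within 500 bp of a start site (right panel). Red bars are microRNA precursors or their hosts with exact 95% intervals, grey bars the backgrounds; among long protein-coding genes the hosts stand at 46.2% and all genes at 33.2%.

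Many precursors lay far from the summit at their host's start. Of the 185 precursors in a host, 58 had a host with a start summit. Of these, 38 (65.5%) had no IDR summit within 2 kb of the hairpin, as did 223 of all 260 precursors. Counting both places, 75 of 260 precursors (28.8%, interval 23.4% to 34.8%) had an IDR summit beside them or at a host start, and 20 had both. No matching share of other genes or arm bases was computed for both places, so this count has no background.
The strongest host promoters after lncRNA:CR31044 were those of CG5953, Btk and spi. CG5953, host of mir-4943, had a peak of score 1328 and rank 93, with replicate ranks 91, 87 and 115 and the summit 4779 bp from the hairpin. Btk, a tyrosine kinase gene and host of mir-2b-1, had a start peak of rank 155, with replicate ranks 169, 147 and 193. That start belongs to a transcript that does not contain mir-2b-1, and its summit was 19176 bp away. spi encodes the main ligand of the epidermal growth factor receptor and hosts mir-2a-1, mir-2a-2 and mir-2b-2. Its strongest start peak had rank 290 and replicate ranks 286, 407 and 257, and 4 IDR summits lay at its starts.

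Among the hosts not yet described, for, a gene for a cyclic GMP-dependent kinase that holds mir-4972, had a start peak of rank 429, and MRP, a drug transporter gene that holds mir-9382, had one of rank 656. Their replicate ranks were less even, 1200, 346 and 307 for the peak at for, and 1810, 1306 and 329 for that at MRP. Pka-R2, a regulatory subunit of protein kinase A and host of mir-4967, had rank 869, ranks 669 and 2615 in replicates 1 and 2, and no region in replicate 3. The strongest start peak of bun had rank 972 and replicate ranks 1235, 876 and 899, with its summit 23905 bp from mir-967. The strongest start peaks of the hosts outside the first 12 ranked between 1012 and 4802. For 45 of the 168 hosts, a start of a transcript that contains the precursor had an IDR summit, though not always the strongest one. At for, 1 of the 2 start summits was of this kind. The peak of rank 429 lay at a start downstream of mir-4972, whose transcripts do not contain it. Btk, jigr1, tacc and kis had a summit only at such other starts.

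Grouped by what the microRNAs are known for, the timing and ecdysone list had an IDR summit within 2 kb in 1 of 6 members, mir-14, and at a host start in 2, mir-14 and mir-34. let-7, mir-100 and mir-125, the ecdysone-induced cluster of metamorphosis in lncRNA:let7C, had none, with the nearest IDR summit 6506, 5906 and 6787 bp away. In the replicate lists the best region near let-7 ranked 7397 in replicate 1 and 8470 in replicate 2, with none in replicate 3. At the start of lncRNA:let7C itself, replicates 1 and 2 listed regions of ranks 1565 and 1553, among their strongest, while replicate 3, the pooled list and the IDR set listed none. A further 5 IDR summits lay within the body of that RNA. mir-34 and mir-277, which affect ageing and amino acid metabolism, share the host lncRNA:CR43459, whose start peak had rank 1594 and replicate ranks 1739, 1634 and 1808. That summit was 6400 bp from mir-277. mir-252 had no IDR summit at either place.

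The growth and cell death list had a summit within 2 kb in 3 of 16 members (18.8%), namely bantam, mir-8 and mir-308, against 14.2% of all precursors. All 16 lie in a host, and 9 of them had a summit at a host start. The same held for 58 of the 185 precursors in a host (31.4%). It held for 40 of the 218 in no list, which include precursors without a host. The 16 form 10 loci, and 3 of the 9 share the host spi. The 9 were bantam, mir-8, mir-308, mir-2a-1, mir-2a-2, mir-2b-1, mir-2b-2, mir-11 and mir-278. For mir-2b-1, the start belongs to a Btk transcript that does not contain it. The members of this list that carry the seed AUCACAG are known to repress cell death genes. All members with that seed number 14, of which 1, mir-308, had a summit within 2 kb. mir-11 lies in E2f1, a cell cycle transcription factor gene, whose start peak had rank 2174 and replicate ranks 3744, 4642 and 1066. mir-278, in CG42524, had its host's start peak at rank 2982, and mir-6-1, mir-6-2, mir-6-3, mir-2c, mir-13a, mir-13b-1 and mir-13b-2 had neither kind of summit.

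The list for muscle, nerve and sense organs had a summit within 2 kb in 3 of 10 members (30%), against 14.2% of all precursors. These were mir-1, mir-279 and mir-996, of which the last pair lie in 1 locus. A start of the host of mir-184 had a summit of rank 4287. mir-133, mir-124, mir-7, mir-9a, mir-263a and mir-263b had neither. The metabolism list had 3 of 6 (50%) within 2 kb, namely mir-276a and the neighbours mir-275 and mir-305, which share 1 summit. For mir-277 a summit lay at its host's start. mir-33, in an intron of the lipid regulator SREBP, and mir-276b had neither. Of the 4 members in the Hox complexes, mir-10, mir-993, mir-iab-4 and mir-iab-8, 0 had an IDR summit at either place, and the nearest to mir-iab-4 lay 102072 bp away. Over all lists 10 of 42 members (23.8%) had a summit within 2 kb, against 27 of 218 (12.4%) of the members in no list. With either place counted, the figures were 19 of 42 (45.2%) and 56 of 218 (25.7%). The 42 listed members fall into 31 loci, and the lists were chosen for well-studied microRNAs. Of all 260 precursors 75 have no host, so only a summit within 2 kb can count for them.

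**Figure D5:**
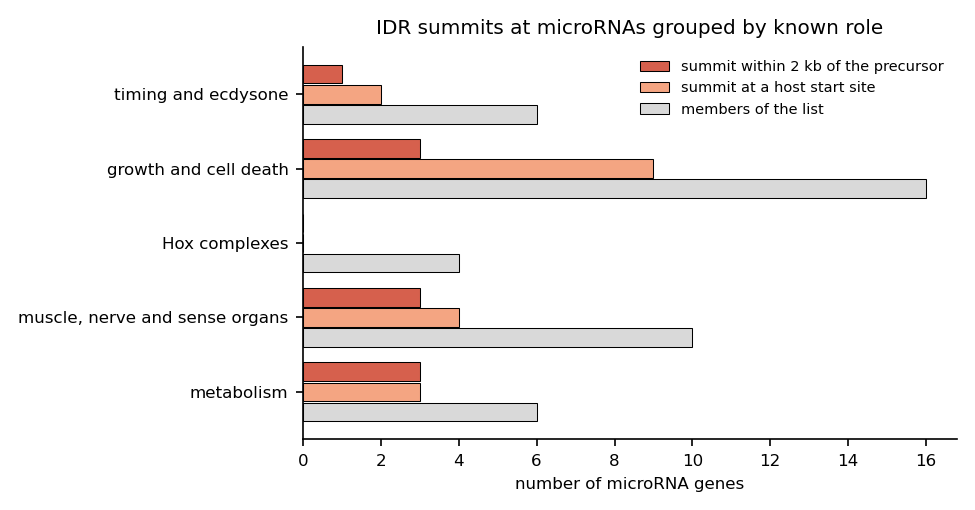
Number of microRNA genes (x axis) in each list by known role, with an IDR summit within 2 kb of the precursor (red), at a host start (orange), and in the list as a whole (grey). The growth and cell death list has 9 of 16 members with a summit at a host start, and the Hox list has 0 of 4.

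The seeds of the mature microRNAs link few of these loci. Of 33 seeds shared by at least 2 members, 2 had more than 1 member with a summit within 2 kb. The seed AUUGCAC belongs to mir-92a, mir-92b and the mir-310 to mir-313 cluster, and 5 of these 6 had one, but the cluster's 4 share a single peak. The seed GACUAGA belongs to mir-279, mir-996 and mir-286, of which the first pair lie in 1 transcript and mir-286 had its nearest IDR summit 13596 bp away.

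Of the 16 listed genes of the microRNA machinery, 3 (18.8%) had an IDR summit at a start, no more than 500 bp away, beside the 13.0% of protein-coding genes given above. All 3 belong to dicing and loading: Hsp83, the chaperone that helps load Argonaute, AGO1 itself, and the chaperone gene Hsc70-4. The Hsp83 peak had a score of 1300, rank 100 and replicate ranks 49, 267 and 109. The AGO1 peak had rank 904 and replicate ranks 636, 975 and 1102, and the Hsc70-4 peak had rank 4499. Dcr-1 and loqs had none. Neither the 6 genes of nuclear processing and export (drosha, pasha, Ars2, Cbp20, Cbp80 and Ranbp21) nor the 5 of silencing (gw, twin, me31B, pcm and Not1) had one.

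The sequence around the 43 summits was searched, within 100 bp to each side and on both strands, for 4 exact motifs. GAGAG, the core of GA repeats, occurred at 22 (51.2%), against 33.5% of all IDR peaks on the arms. It occurred at 10 of 22 promoter summits (45.5%), against 39.7% of all promoter IDR peaks, and at 12 of 21 other summits (57.1%), against 28.9%. CACGTG, the E-box, occurred at 4 (9.3%), against 2.04%, namely at mir-4962, mir-9377, mir-8 and mir-2500. TATCGATA, the DNA replication element, occurred at 0, against 0.832%, and AGGTCA, a nuclear receptor half-site, at 0, against 3.5%. Several windows belong to 1 locus, as at mir-4962 and mir-9377, so they are not independent.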

How the data were processed

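ChIP-seq for CG16779-eGFP was done on whole prepupae in 3 biological replicates, which the labels put in 1 group. The deposited files used are 5 peak lists on dm6, and each score in them is the authors' own, per list. Per the deposited file listings, the IDR set draws on the 3 replicate lists plus the pooled one. Not given in the sources used here are the caller, the aligner and the threshold of the IDR. Read depth is unknown, and the dm3 lists were not analysed here. Ensembl release 115 was used, with members taken as genes with a transcript of biotype pre_miRNA. A host is any other gene that overlaps a precursor on its strand, without transposable elements and mature microRNA entries. A region was shared when at least 1 bp overlapped. Intervals are exact (Clopper-Pearson) at 95% and cover counting error only. No test was run, since there is 1 group. Named are the 25 members and 12 hosts with the highest-scoring peaks, the 5 best pooled members without an IDR summit, the 5 with the largest replicate rank ratio, and all listed genes. Other hosts and members were named after their values were seen, and the split of shorter hosts was added then. Members and lists were chosen with earlier results of these data known. The alternatives were other windows, lists and scores, and leaving out each replicate. The counting was tested on simulated data. Python 3.11.15 with numpy 2.4.6, pandas 2.3.3 and scipy 1.17.1 was used.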

Additional observations from a re-analysis of the deposited data

How the results depend on the processing

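The count of 37 precursors with an IDR summit depended on the window and list. It was 10 (3.85%) with a window of 500 bp, against 3.27% of arm bases, 24 (9.23% against 6.05%) with 1 kb and 77 (29.6% against 21.4%) with 5 kb. IDR peaks above the median score gave 18 (6.92% against 5.89%), and the pooled list 103 (39.6% against 43.4%). Without each replicate in turn, regions that the remaining pair share among their strongest gave 21, 17 and 22 precursors. The shares were 8.08% against 6.46% of bases without replicate 1 and 8.46% against 7.93% without replicate 3. Without replicate 2 the share of precursors (6.54%) lay below that of bases (6.69%). These sets hold 2784 to 3477 regions, fewer than the IDR set. The count of 49 hosts was 32 (19% against 10.6% of protein-coding genes) when only the 5′ end of the host counted, 29 (17.3% against 7.51%) with IDR peaks above the median score and 98 (58.3% against 32%) in the pooled list. Leaving out replicates 1, 2 and 3 in turn, in the same smaller sets, gave 33 (19.6% against 7.53%), 32 (19% against 7.46%) and 38 (22.6% against 11.3%). The share of hosts exceeded that of protein-coding genes under each of the alternatives that has such a share. The hosts here include noncoding ones, and none of these alternatives matched hosts and genes for length. How far the greater length of hosts enters each of these comparisons was not tested. Read depth is unknown, so a precursor without a region may have a signal below what these lists hold.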
